A study of Mus musculus with 20 samples.

Results

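The genes of antigen presentation described here were 9 rows of a read count table of 34255 mouse genes, chosen by gene symbol. They comprised 5 genes of major histocompatibility complex (MHC) class I (H2-K1, H2-D1, H2-Q7, H2-T23 and B2m) and 4 of class II (H2-Aa, H2-Ab1, H2-Eb1 and Cd74). All 9 passed the filter on low counts in both fits used, of 20 libraries (13813 genes tested) and of the 16 microdissected libraries (12179 genes tested).

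The study compared gene transcription between microvascular compartments of the healthy mouse renal cortex. Arterioles, glomeruli, peritubular capillaries (PTC) and post-capillary venules were cut by laser microdissection from cryosections of snap-frozen kidneys, and whole kidney (WK) samples, which were not microdissected, served as reference. There were 4 libraries in each of the 5 groups, named here by the numbers 93, 96, 98 and 100 in the table's column names. All samples came from untreated male WT (wild-type) mice of the C57BL6/OlaHsd strain, aged 8 to 12 weeks per the study's methods. PTC were collected from a slide stained with the lectin isolectin B4, whereas the other compartments were collected from hematoxylin-stained slides. The tissue area cut was smaller for arterioles and PTC, and microdissected libraries received more PCR cycles than WK libraries, so preparation and tissue cannot be told apart in any comparison with WK. A cut structure contains all cell types within its outline, and the arteriolar, glomerular and venular segments of a mouse came from the same slide. The labels call the samples biological replicates without tying a library number to an individual mouse. P-values measured only the spread between these libraries, which may be partly technical.

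MHC class I molecules consist of a heavy chain, such as those encoded by H2-K1 and H2-D1, bound to β2-microglobulin (B2m), and present peptides of intracellular origin to CD8+ T cells on nearly all nucleated cells. H2-Q7 and H2-T23 encode nonclassical class I heavy chains with a narrower range of ligands and receptors. MHC class II molecules are dimers of an α chain and a β chain (H2-Aa and H2-Ab1 for the H2-A molecule, with H2-Eb1 encoding the β chain of H2-E) and present extracellular peptides to CD4+ T cells. Cd74, the invariant chain, guides the dimers through the cell. Class II is constitutively made by dendritic cells, macrophages and B cells and can be induced by interferon-γ in other cells, endothelium among them.

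Of the 9 genes, 7 lie on chromosome 17 and B2m on chromosome 2 in the GENCODE M21 annotation of GRCm38. H2-K1 (ENSMUSG00000061232) spans chr17:33996017-34000347 on the minus strand, H2-Ab1 chr17:34257689-34269419 on the plus strand, H2-Aa chr17:34282744-34287823 on the minus strand and H2-Eb1 chr17:34305867-34316674 on the plus strand. Further along the same complex lie H2-D1 (chr17:35262730-35267499, plus), H2-Q7 (chr17:35439155-35443773, plus) and H2-T23 (chr17:36029773-36032855, minus). B2m is at chr2:122147686-122153083 on the plus strand. An annotated gene on the opposite strand overlaps B2m (Patl2), H2-Eb1 (Gm20513) and H2-T23 (A930015D03Rik), and without a stated strand setting the reads of such pairs cannot be told apart.

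Promoter sequences were looked up in a RefSeq table (GRCm38.p6), which held 7 of the 9 members, without an entry for H2-Ab1 and Cd74, and are shown for genes whose levels moved together or apart in the comparisons. H2-D1 is not shown because its RefSeq start lies inside its GENCODE span. H2-Q6, the gene next to H2-Q7 in the same family, is included for the comparison of this pair. Each sequence gives the 250 bases before the annotated start, 5′ to 3′ on the gene's strand, with motif matches in capitals. The motifs, searched on both strands, were the Y box CTGATTGG, the X1 box CCTNGNAAC, the interferon-stimulated response element TTCNNTTTC, the kappa B site GGGNNTCCC and the CRE hexamer TGACGT.
H2-K1: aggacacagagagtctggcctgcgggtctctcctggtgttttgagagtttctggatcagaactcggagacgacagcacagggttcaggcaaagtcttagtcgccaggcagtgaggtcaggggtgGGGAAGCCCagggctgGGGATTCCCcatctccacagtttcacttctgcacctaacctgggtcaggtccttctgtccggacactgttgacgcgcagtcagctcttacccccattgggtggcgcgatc
H2-Q7: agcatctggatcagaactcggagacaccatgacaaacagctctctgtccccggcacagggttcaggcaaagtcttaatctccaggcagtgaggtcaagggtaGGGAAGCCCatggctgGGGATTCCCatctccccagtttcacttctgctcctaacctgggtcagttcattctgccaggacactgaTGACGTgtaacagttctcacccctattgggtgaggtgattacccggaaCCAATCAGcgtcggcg
H2-Q6: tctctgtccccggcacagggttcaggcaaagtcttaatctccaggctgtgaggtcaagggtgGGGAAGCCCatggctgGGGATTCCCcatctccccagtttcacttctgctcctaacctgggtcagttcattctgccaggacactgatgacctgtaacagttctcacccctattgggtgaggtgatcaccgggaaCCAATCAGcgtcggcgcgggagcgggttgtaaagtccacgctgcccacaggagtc
B2m: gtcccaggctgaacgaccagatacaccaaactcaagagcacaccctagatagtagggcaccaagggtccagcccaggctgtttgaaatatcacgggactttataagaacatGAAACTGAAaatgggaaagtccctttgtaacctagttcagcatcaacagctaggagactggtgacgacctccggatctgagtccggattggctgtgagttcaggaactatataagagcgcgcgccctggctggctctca
H2-Aa: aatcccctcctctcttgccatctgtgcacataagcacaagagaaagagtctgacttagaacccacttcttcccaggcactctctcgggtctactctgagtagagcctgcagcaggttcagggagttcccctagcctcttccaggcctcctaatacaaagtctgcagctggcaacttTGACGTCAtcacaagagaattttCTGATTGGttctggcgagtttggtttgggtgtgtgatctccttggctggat
H2-Eb1: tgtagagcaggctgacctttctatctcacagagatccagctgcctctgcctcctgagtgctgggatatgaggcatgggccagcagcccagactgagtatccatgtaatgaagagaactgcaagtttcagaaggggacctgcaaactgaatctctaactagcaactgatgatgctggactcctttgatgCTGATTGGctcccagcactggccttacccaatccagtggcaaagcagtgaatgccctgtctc
The windows are chr17:34000348-34000597 (minus strand) for H2-K1, chr17:35438905-35439154 (plus strand) for H2-Q7, chr17:35424600-35424849 (plus strand) for H2-Q6, chr2:122147437-122147686 (plus strand) for B2m, chr17:34287824-34288073 (minus strand) for H2-Aa and chr17:34305617-34305866 (plus strand) for H2-Eb1. Of 32841 mouse promoters of the same 300-base table window (250 bases before and 50 after the start), 4.1% held the Y box, 4.85% the X1 box, 8.56% the interferon element, 5.66% the kappa B site and 7.51% the CRE hexamer. A Y box was found in the window of 6 of the 7 members (all but B2m), and that of H2-K1 lay after the start. The kappa B letters were present in H2-K1, H2-D1, H2-Q7 and H2-Q6, where the match on both strands at GGGATTCCC overlaps itself. The class II windows of H2-Aa and H2-Eb1 both held the Y box, and the 2 CRE hexamers of H2-Aa overlap each other. The interferon element was found in B2m and H2-T23, the X1 box in H2-D1, and a CRE hexamer in H2-Q7. Over their best local alignment, the windows of H2-Q7 and H2-Q6 were identical at 97.3% of 261 columns, compared with 82.9% for H2-Q7 and H2-D1. These matches describe letters in the reference and not binding.

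Because QuantSeq reads fall near the 3′ end of a transcript, the last 500 bases of each member's longest protein-coding transcript were compared with all other annotated transcripts. No 100-base window of H2-K1, H2-D1, H2-Q7, B2m, H2-Aa, H2-Ab1, H2-Eb1 or Cd74 occurred in another gene. For H2-T23, 9.73% of the 100-base windows did. With 50-base windows, the shared proportion was 0.443% for H2-K1, 9.53% for H2-D1, 6.21% for H2-Q7 (with H2-Q5 and H2-Q10) and 38.1% for H2-T23, and it was 0% for B2m and the 4 class II genes. H2-Q6 shared 35.9% of its 50-base windows, among class I genes only with H2-Q4. By this measure the counts of H2-T23 and H2-Q6 are the least certain. No 50-base window was shared between H2-Q7 and H2-Q6.

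Library totals ranged from 4639090 to 12283098 counts. Levels are given as CPM, read counts scaled to a common library total after TMM normalisation, as mean ± SD of n = 4 libraries. Values at 5 counts or fewer occurred in all microdissected groups among 2522 genes with 10 to 30 CPM in all WK libraries. Their share was 41.2% in arterioles, 10.3% in glomeruli, 23% in PTC and 16.7% in venules. It was 0% in WK, which the choice of genes by their WK level fixed in advance. Truly lower levels and scatter between libraries cannot be told apart in these shares. Low values in single libraries were therefore given little weight. Markers fixed for each compartment followed the labels in arterioles (smooth muscle markers, 5 of 5 called higher than WK) and glomeruli (podocyte markers, 5 of 5). Over all tested genes, 5.78% and 1.59% were called higher there. In arterioles 2 of 5 podocyte markers were also called higher and 1 lower, with summed levels of 1092 to 1756 CPM against 167 to 188 CPM in WK. Of 8 endothelial markers, arterioles had 5 called higher and 1 lower, and glomeruli had 5 called higher. In PTC, 0 of 8 endothelial markers were called higher than WK, while 2 of 5 proximal tubule markers were, with summed proximal tubule levels of 59244 to 110728 CPM against 31874 to 33516 CPM in WK. Only 0.0869% of all tested genes were called higher in PTC than in WK, so a count of 0 of 8 carries little weight. In venules, where 0.203% of all tested genes were called higher than WK, 0 of 8 endothelial markers were. Their summed level of 542 to 802 CPM exceeded that of WK (319 to 396 CPM).

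Arterioles had the highest mean level of the classical class I genes. H2-K1 measured 879, 574, 857 and 713 CPM in the arteriolar libraries 93, 96, 98 and 100, in that order, compared with 112, 141, 139 and 136 CPM in WK. Every arteriolar library lay above every WK library. The mean of 756 ± 142 CPM was 5.72 times the WK mean of 132 ± 13.4 CPM, a log2 fold change of 2.52 ± 0.42 (SE; edgeR quasi-likelihood test, Benjamini-Hochberg adjusted p = 7.13e-05).

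H2-D1, the other classical heavy chain of this strain, was measured at 235, 1015, 885 and 839 CPM in arterioles and at 124, 113, 132 and 128 CPM in WK. Arteriolar library 93 was well below its group but still above all WK libraries. The log2 fold change was 2.58 ± 0.46 (adjusted p = 0.000179). B2m, the shared light chain, had 646, 2485, 1108 and 1574 CPM in arterioles and 338, 257, 331 and 340 CPM in WK, again without overlap (log2 fold change 2.20 ± 0.37, adjusted p = 7.29e-05). In bulk samples such as these, fewer cells of a type and less RNA per cell cannot be told apart.

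Of the 9 members, 7 were called higher in arterioles than in WK (4 of 5 class I, 3 of 4 class II), where 5.78% of all tested genes were called higher. The other class I call was H2-Q7 (log2 fold change 2.47 ± 0.69, adjusted p = 0.0182). Among the class II genes, H2-Aa measured 307, 415, 410 and 488 CPM in arterioles and 111, 131, 128 and 104 CPM in WK, a log2 fold change of 1.78 ± 0.57 (adjusted p = 0.0373). H2-Ab1 (172, 696, 186 and 340 CPM in arterioles, 99.1 to 106 CPM in WK) rose by 1.78 ± 0.53 (adjusted p = 0.0249) and H2-Eb1 (415, 196, 218 and 286 CPM, 82.6 to 112 CPM in WK) by 1.54 ± 0.51 (adjusted p = 0.045). For each of these 3 chains all arteriolar libraries were above all WK libraries. With the library number as a replicate block, H2-Eb1 was not called. With any 1 of the 4 WK libraries left out, or with no filter on low counts, the calls were H2-K1, H2-D1 and B2m, and with total-count scaling these and H2-Q7.

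The median log2 fold change of the 5 class I members in this comparison was 2.47 and that of the 4 class II members 1.66, beside 0.22 over all tested genes. Scaling mattered for that background: with total-count scaling in place of TMM the all-gene median was -0.32, and with the size factors of DESeq2 it was 0.39. H2-K1, H2-D1 and B2m were called higher in arterioles than in WK under every one of the 10 other settings and with each of the 20 libraries left out in turn. H2-Eb1 was called in 9 of the 20 left-out fits, H2-Aa in 14, H2-Ab1 in 15 and H2-Q7 in 16.

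**Figure D1:**
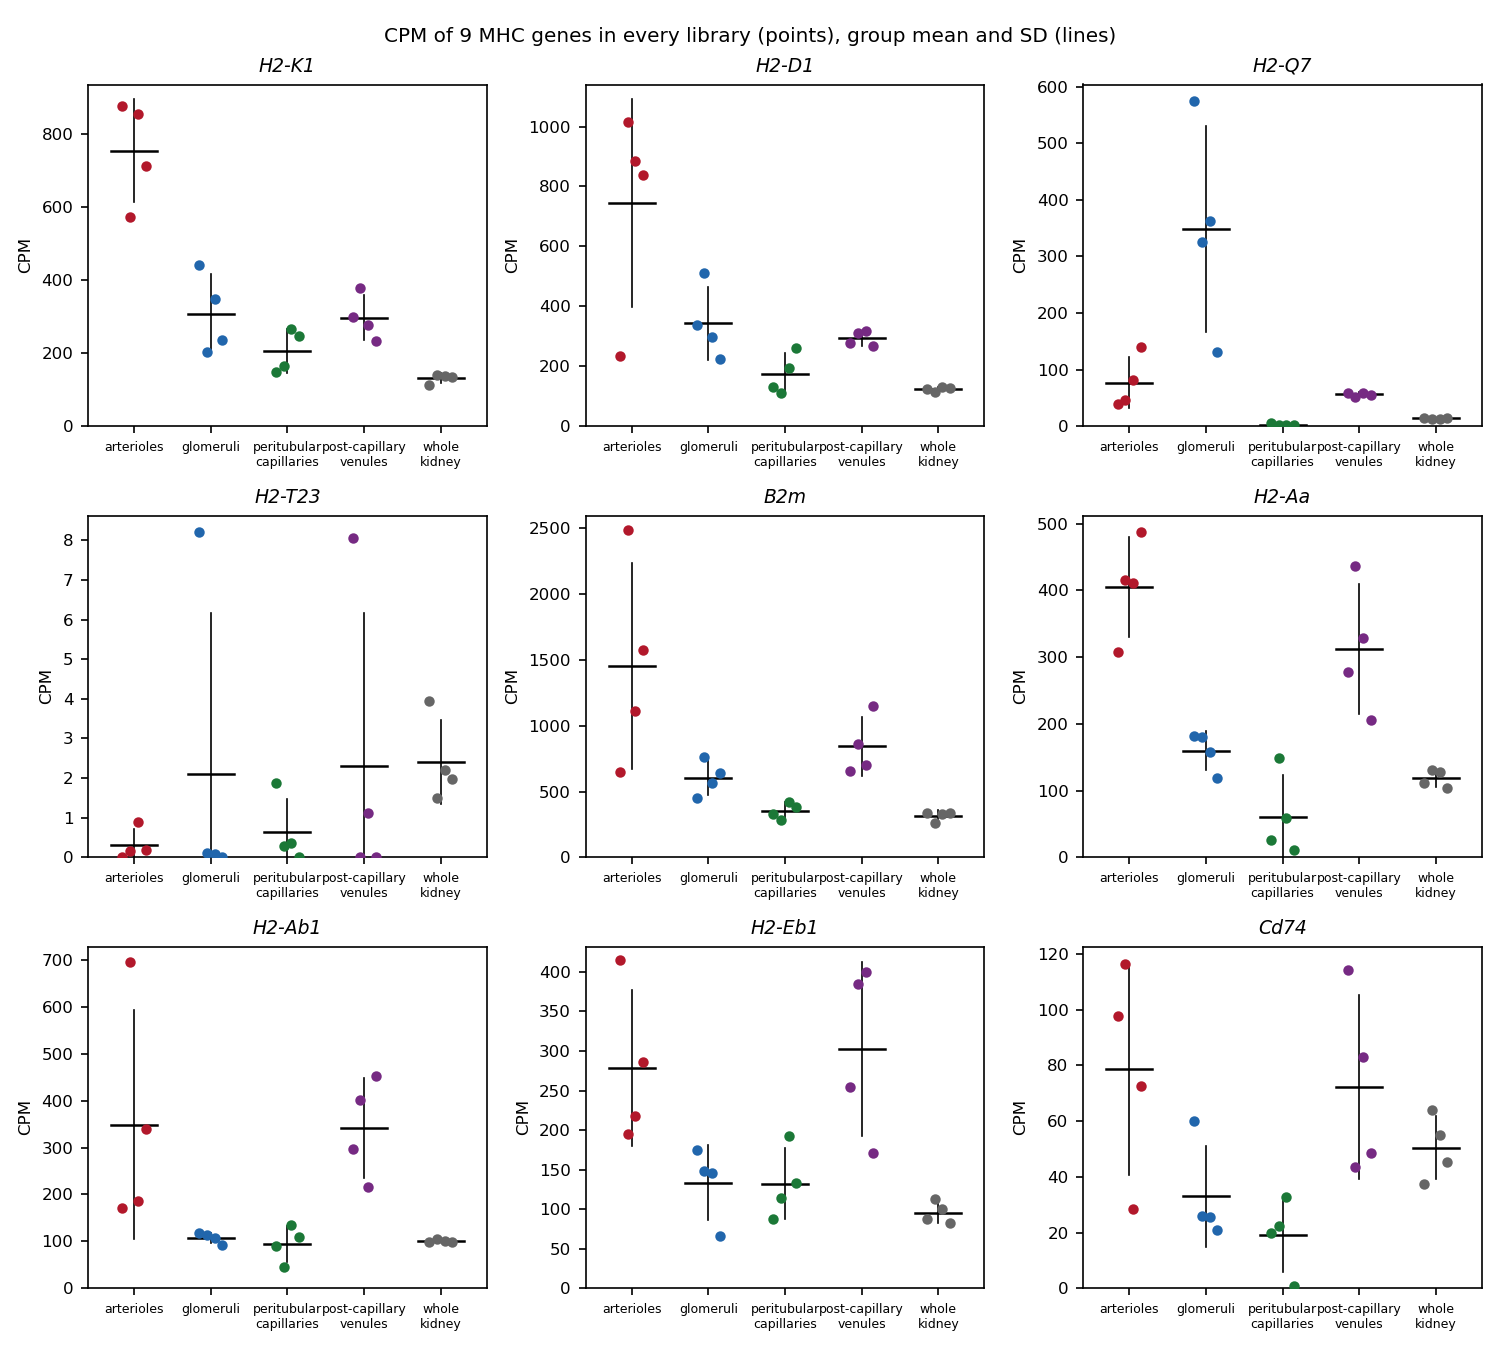
CPM (linear axes from 0) of each of the 9 MHC genes in the 20 libraries, 1 point per library, with the group mean (horizontal line) and SD (vertical line) for n = 4. H2-K1 sits between 574 and 879 CPM in arterioles, above every other library, while H2-Q7 has its highest mean in glomeruli and is at most 6.34 CPM in PTC.

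Arterioles also had the highest mean of H2-K1, H2-D1 and B2m among the compartments. Against PTC, 6 members were called higher (H2-K1, H2-D1, H2-Q7, B2m, H2-Aa and H2-Ab1), where 6.22% of the 12179 tested genes were called higher. H2-K1 measured 148, 165, 268 and 248 CPM in PTC, all below every arteriolar library, a log2 fold change of 1.87 ± 0.47 (adjusted p = 0.00674). The H2-Ab1 call was kept in 7 of 10 other settings and in 11 of 16 fits with 1 library left out. The replicate block was among the settings that lost it. DESeq2 also called Cd74 and H2-Eb1. For B2m the PTC libraries had 331, 281, 422 and 386 CPM and the difference was 2.04 ± 0.41 (adjusted p = 0.000727). H2-D1 differed by 2.09 ± 0.51 (adjusted p = 0.00494), although arteriolar library 93, at 235 CPM, was below PTC library 100, at 262 CPM.

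No member was called between arterioles and glomeruli (2.19% of genes called in either direction) or between arterioles and venules (4.38%). Glomerular H2-K1 was 443, 205, 349 and 236 CPM and venular H2-K1 300, 380, 276 and 234 CPM, in both cases below every arteriolar library. The log2 fold changes of arterioles were 1.30 (95% interval 0.36 to 2.23, adjusted p = 0.126) against glomeruli and 1.34 (0.41 to 2.27, adjusted p = 0.084) against venules. At an unadjusted p under 0.05, 6 members passed against glomeruli and 2 against venules. Of all 12179 genes tested, 878 passed as higher and 1441 as lower in arterioles than in glomeruli. Against venules, 1198 passed as higher and 1566 as lower in arterioles. DESeq2 called 4 members between arterioles and glomeruli (H2-Q7, B2m, H2-K1 and H2-Ab1) and 2 between arterioles and venules (H2-D1 and H2-K1). The share of all genes that DESeq2 called was not counted. Glomeruli and venules were next to each other in the order of H2-K1 levels (308 ± 109 and 298 ± 61.3 CPM) and did not differ beyond their spread (log2 difference 0.04, interval -0.87 to 0.96).

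Set against the averaged log level of the remaining 3 compartments, arterioles had 4 members called higher (B2m, H2-K1, H2-D1 and H2-Aa), where 8.11% of genes were. The log2 differences were 1.36 ± 0.30 for B2m, 1.5 ± 0.34 for H2-K1, 1.51 ± 0.37 for H2-D1 and 1.48 ± 0.46 for H2-Aa (adjusted p = 0.00193, 0.00276, 0.0051 and 0.0306). Of these, only H2-K1 had all arteriolar libraries above all 12 others. The H2-Aa call was kept in 8 of 9 other settings and in 11 of 16 fits with 1 library left out. The calls of B2m, H2-K1 and H2-D1 were kept in all of them.

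**Figure D2:**
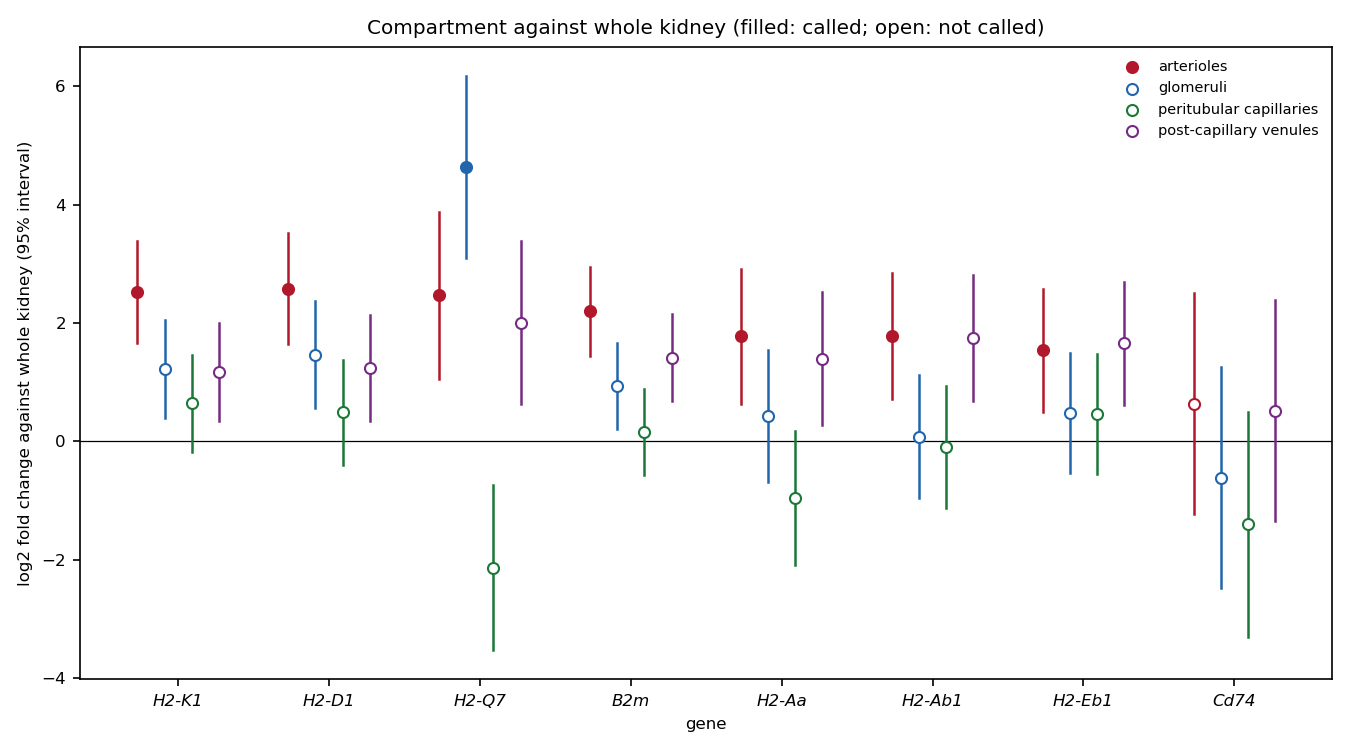
Log2 fold change of each compartment against WK with its 95% interval (y axis) for 8 of the 9 genes (x axis; H2-T23, close to 0 counts in most libraries, is not drawn), from the fit of 20 libraries. Filled points were called (adjusted p under 0.05 and beyond 1) and open points were not; filled points are the 7 arteriolar genes named in the text and glomerular H2-Q7.

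H2-Q7 did not follow the classical class I genes. This gene encodes a Qa-2 antigen. It measured 575, 325, 363 and 131 CPM in glomeruli, 15.2, 12.6, 13.6 and 14.5 CPM in WK and 6.34, 2.36, 1.98 and 1.96 CPM in PTC. Glomeruli were above all WK and PTC libraries, and PTC below every library of every other group.

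H2-Q7 was the 1 member called higher in glomeruli than in WK, where 1.59% of genes were called higher, with a log2 fold change of 4.64 ± 0.76 (adjusted p = 0.000144). It was also the 1 member called between glomeruli and PTC (2.2% of genes called higher), with a log2 fold change of 6.78 ± 0.94 (95% interval 4.88 to 8.67, adjusted p = 5.86e-06). The glomerular mean of 349 ± 182 CPM was 110 times the PTC mean of 3.16 ± 2.13 CPM, which rested on 51, 16, 17 and 10 counts. In the comparison with the mean of the other compartments, where 2.46% of genes were called higher in glomeruli, H2-Q7 was again the 1 member called (3.86 ± 0.54, adjusted p = 7.68e-06).

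Arterioles (40.3, 47.0, 81.9 and 140 CPM) and venules (59.0, 51.0, 59.7 and 56.0 CPM) stood between these extremes and did not differ from each other beyond their spread (log2 difference 0.45, interval -1.03 to 1.92). Both were above WK in every library, but the venular difference from WK was not called (log2 fold change 2.01 ± 0.68, adjusted p = 0.293). PTC were called lower than venules for H2-Q7 alone (0.328% of genes called lower), by -4.15 ± 0.83 (adjusted p = 0.00807), a call that was lost with the version 4 form of the edgeR test, with independent filtering, in a fit of these groups alone and without PTC library 96. With the replicate block H2-Aa was called there too. Between glomeruli and venules no member was called (1.22% in either direction), with H2-Q7 at a log2 difference of 2.62 ± 0.77 (adjusted p = 0.0897). At an unadjusted p under 0.05, 3 members passed there, and DESeq2 called 1. Of all 12179 genes tested, 736 passed that unadjusted level as higher and 668 as lower in glomeruli.

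Relative to the sum of H2-K1 and H2-D1, H2-Q7 amounted to a ratio of 0.736, 0.455, 0.561 and 0.284 in glomeruli. The ratio was 0.0296 to 0.0899 in arterioles, 0.0738 to 0.112 in venules, 0.0494 to 0.0643 in WK and 0.00383 to 0.0228 in PTC. All glomerular libraries were above those of every other group and all PTC libraries below them. The ratio does not depend on how library totals are scaled.

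H2-Q6, whose promoter is nearly the same (sequences above), was likewise present in every glomerular library. It had 2350, 2921, 2512 and 1252 counts in glomeruli (235, 323, 196 and 138 CPM). In arterioles it had 4, 3564, 2 and 234 counts and in venules 6, 802, 2 and 2 counts, while H2-Q7 had 189 to 782 counts and 322 to 527 counts in the same libraries. H2-Q6 was thus at 2 to 6 counts in 5 of these 8 libraries, all of which held H2-Q7. PTC libraries had 13, 3, 12 and 2 counts of H2-Q6.

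Summing both genes into 1 row, an alternative chosen after the data were seen, gave a log2 fold change of glomeruli of 4.84 against WK (adjusted p = 3.17e-05) and 7.11 against PTC (adjusted p = 6.11e-07). It also called glomeruli above venules (2.81, adjusted p = 0.0323), which H2-Q7 alone did not pass. The sum likewise called arterioles above the mean of the other 3 compartments (2.00, adjusted p = 0.00607). H2-Q7 alone was at 0.96 there (adjusted p = 0.252). Against WK the arteriolar log2 fold change of the sum was 3.54 (adjusted p = 0.000497). The arteriolar sum of 41.1, 621, 82.2 and 181 CPM was spread more widely than H2-Q7 alone.

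**Figure D3:**
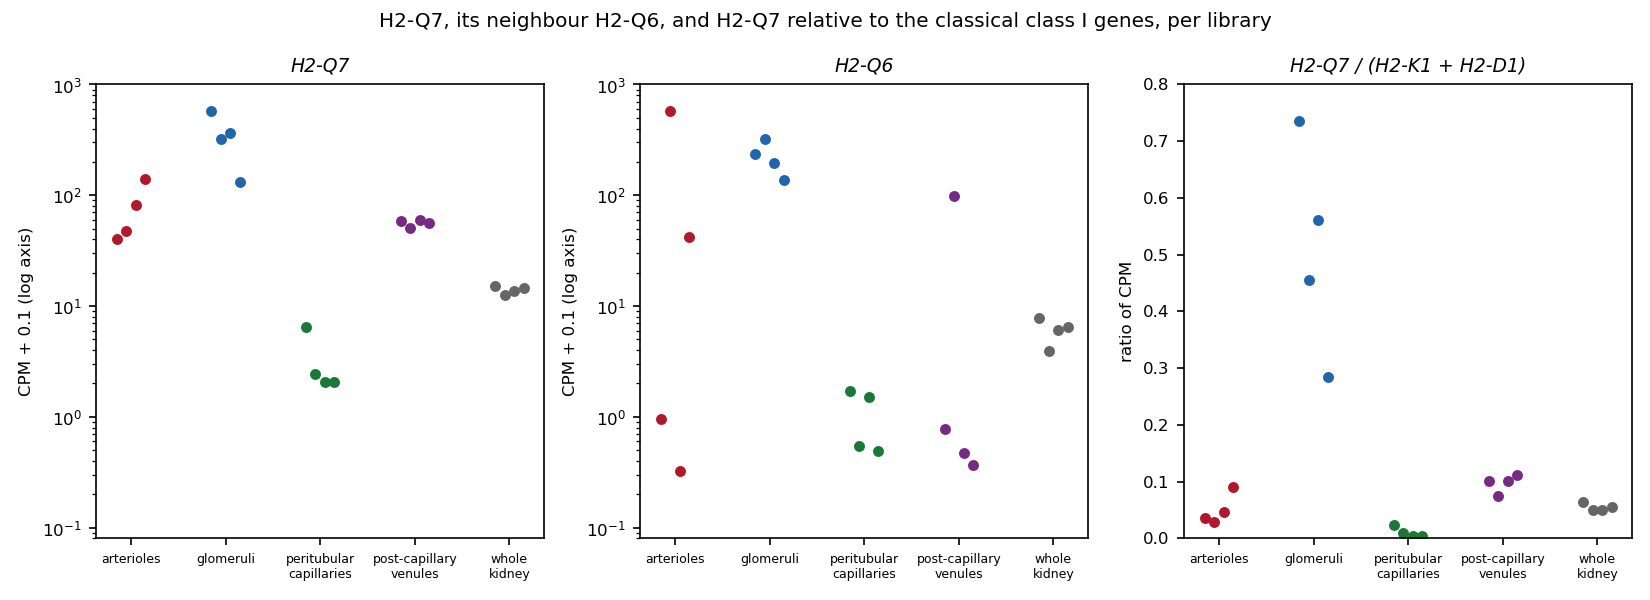
H2-Q7 (left) and H2-Q6 (middle) as CPM + 0.1 on log axes, and the ratio of H2-Q7 to the sum of H2-K1 and H2-D1 (right, linear axis from 0), 1 point per library in each of the 5 groups. Both genes are high in all 4 glomerular libraries and low in PTC, while H2-Q6, but not H2-Q7, falls to under 1 CPM in 2 arteriolar and 3 venular libraries.

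Apart from H2-T23, each member had its lowest mean among the compartments in PTC. Glomeruli and PTC did not differ beyond their spread for H2-Eb1 (log2 difference 0.02, interval -1.12 to 1.16) or H2-Ab1 (0.18, -0.97 to 1.34). H2-Aa measured 25.2, 149, 59.5 and 10.6 CPM in PTC, with library 96 far above library 100. Against the mean of the other compartments 3 members were called lower, where 2.91% of genes were: H2-Q7 (-5.18 ± 0.83, adjusted p = 3.85e-05), B2m (-1.36 ± 0.35, adjusted p = 0.0114) and H2-Aa (-2.16 ± 0.57, adjusted p = 0.0133). PTC libraries were below all 12 others for H2-Q7 and B2m, whereas for H2-Aa library 96 overlapped. Leaving out PTC library 93 or 100 lost the H2-Aa call, and leaving out PTC library 96 lost the B2m call.

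Against WK, PTC had 0 members called (0.0941% of genes called in either direction). H2-K1 in PTC was above all WK libraries (log2 fold change 0.65, interval -0.17 to 1.46) and H2-Q7 below all of them (-2.13, interval -3.53 to -0.73, adjusted p = 0.266). At an unadjusted p under 0.05, H2-Q7 was the 1 member that passed, and DESeq2 called it. Of all 13813 genes tested, 436 passed that unadjusted level as higher and 1283 as lower in PTC, so nothing particular to the members is read from this count. Summed proximal tubule markers were higher in PTC than in WK, as given above. The summed class I level was 560 to 898 CPM in PTC and 525 to 622 CPM in WK. For class II it was 223 to 420 CPM and 331 to 413 CPM. The part of tubule content in the member levels of PTC was not tested.

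Post-capillary venules and arterioles had the highest class II levels. H2-Ab1 measured 296, 402, 216 and 452 CPM in venules, against 117, 113, 107 and 92.6 CPM in glomeruli and 89.7, 44.7, 135 and 110 CPM in PTC. All venular libraries were above all glomerular, PTC and WK libraries. H2-Eb1 had 255, 385, 400 and 171 CPM and H2-Aa 278, 437, 328 and 206 CPM in venules, and both were above every WK library.

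No member was called between venules and WK in the fit of 20 libraries, where 0.224% of all genes were called in either direction. The log2 fold changes were 1.75 ± 0.53 for H2-Ab1, 1.66 ± 0.51 for H2-Eb1, 1.40 ± 0.56 for H2-Aa, 1.41 ± 0.36 for B2m, 1.17 ± 0.41 for H2-K1 and 1.24 ± 0.44 for H2-D1, with adjusted p from 0.105 to 0.361. At an unadjusted p under 0.05, 7 of the 9 members passed. Of all 13813 genes tested, 358 passed that level as higher and 935 as lower in venules. A fit of venules and WK alone, with a spread estimated from those 8 libraries, called the same 7 genes that were called in arterioles. Independent filtering called B2m and H2-Ab1, and DESeq2 called H2-Q7. The share of all genes called under these alternatives was not counted, and the 0.224% belongs to the fit of 20 libraries only.

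Arterioles and venules did not differ beyond their spread for any class II gene. The log2 difference was 0.02 (95% interval -1.13 to 1.18) for H2-Ab1, 0.37 (-0.85 to 1.60) for H2-Aa, -0.12 (-1.26 to 1.02) for H2-Eb1 and 0.12 (-2.11 to 2.34) for Cd74, with intervals that reach beyond a 2-fold difference. Against the mean of the other compartments, no member was called in venules (0.55% of genes in either direction), with H2-Ab1 at 1.17 ± 0.44 (adjusted p = 0.245). At an unadjusted p under 0.05, 2 members passed, and DESeq2 called 0. Of all 12179 genes tested, 892 passed that unadjusted level as higher and 600 as lower in venules.

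Glomeruli had class II levels near those of WK. H2-Ab1 differed from WK by a log2 fold change of 0.08 (interval -0.95 to 1.12), H2-Aa by 0.43 (-0.68 to 1.55) and H2-Eb1 by 0.48 (-0.53 to 1.5). Of the class I members, H2-Q7 was called higher than WK and the other 4 were not. H2-D1 had 338, 510, 299 and 226 CPM, all above WK, and a log2 fold change of 1.46 ± 0.45 (adjusted p = 0.062). The ratio of summed class II to summed class I was 0.243 to 0.295 in glomeruli, 0.513 to 0.788 in venules and 0.533 to 0.786 in WK. It was thus lower in every glomerular library than in every venular and WK library, whereas arterioles (0.287 to 0.551) and PTC (0.284 to 0.589) overlapped with glomeruli.

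Cd74, which accompanies these chains, was not called in any of the 14 comparisons. It had 97.8, 116, 28.4 and 72.6 CPM in arterioles, 60.003, 25.96, 25.5 and 20.8 CPM in glomeruli, 19.9, 22.4, 32.9 and 0.978 CPM in PTC, 114, 43.5, 82.99 and 48.5 CPM in venules and 37.6, 63.8, 54.9 and 45.4 CPM in WK. Arterioles, venules and WK overlapped, and PTC lay below WK in all 4 libraries (log2 fold change -1.40, interval -3.30 to 0.49). As a ratio to the summed α and β chains, Cd74 was 0.126 to 0.183 in WK and had group means of 0.0746 in arterioles, 0.0806 in glomeruli, 0.0650 in PTC and 0.0800 in venules. Library 93 of venules (0.138) and of glomeruli (0.127) reached the WK range, and the other 14 microdissected libraries lay below it. Whether the preparation of microdissected samples contributed to this ratio was not tested.

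H2-T23, which encodes the Qa-1 heavy chain, had few counts in most microdissected libraries. It had 0, 1, 8 and 1 counts in arterioles, 82, 1, 1 and 0 in glomeruli, 15, 2, 3 and 0 in PTC and 72, 0, 6 and 0 in venules, against 39, 13, 32 and 21 in WK. Its mean level was set by library 93 in glomeruli and venules. All 4 arteriolar libraries lay below all WK libraries. H2-T23 was not called in any of the 14 comparisons, with 95% intervals of the log2 fold change against WK of -7.00 to 1.28 for arterioles and -4.04 to 3.65 for glomeruli. A fit of arterioles and WK alone called it lower in arterioles.

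Summed over the 5 class I members, libraries had 1800 to 4122 CPM in arterioles, 1233 to 1814 in glomeruli, 1300 to 1710 in venules, 560 to 898 in PTC and 525 to 622 in WK. Summed over the 4 class II members, arterioles had 843 to 1423 CPM, venules 877 to 1267, glomeruli 299 to 534, PTC 223 to 420 and WK 331 to 413. For class II the arteriolar and venular libraries all lay above those of the other 3 groups. Across the 16 microdissected libraries, Pearson's r of log2 (CPM + 1) between members, given as a description, had a median of 0.585 over the 6 class II pairs (0.56 to 0.82), 0.425 over the 10 class I pairs (-0.24 to 0.86) and 0.44 over the 20 pairs between classes.

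Markers of leukocytes, which carry class II, were measured beside these sums. The 35 leukocyte markers together had 407 to 1322 CPM in arterioles, 631 to 891 in glomeruli, 202 to 426 in PTC, 408 to 888 in venules and 238 to 325 in WK. Of the 26 that were tested against WK, 1 was called higher in arterioles (Lyz2) and 1 lower (Csf1r), 1 higher in glomeruli (Lyz2) and 0 in PTC and venules. Over all tested genes, 5.78% were called higher and 5.5% lower in arterioles and 1.59% higher in glomeruli. In PTC 0.0941% and in venules 0.224% were called in either direction, so nothing is read from these few calls. The median log2 fold change of the 26 was 1.16 in arterioles, 1.21 in glomeruli, -0.49 in PTC and 1.25 in venules. Over all tested genes it was 0.22, 0.25, 0.18 and 0.19 in that order. In arterioles 8 of the 35 were at 0 counts in all 4 libraries (Flt3, Cd79a, Cd79b, Ms4a1, Cd3e, Cd3g, Ly6g and Csf3r). Other markers of the same lists were not: the T and NK cell list summed to 20.01 to 71.8 CPM in arterioles against 4.53 to 6.08 CPM in WK, with Trbc2 at 71.8, 0, 19.9 and 43.01 CPM. The dendritic cell list summed to 1.61 to 98.1 CPM in arterioles against 16.8 to 17.9 CPM in WK. Few genes set this sum: Zbtb46 had 97.8 CPM in arteriolar library 93, and Xcr1 had 49.6 CPM and Zbtb46 37.5 CPM in library 100. In glomeruli Zbtb46 had a mean of 89.2 CPM, where the whole list had 94.9 CPM. In PTC 8, in venules 6, in glomeruli 3 and in WK 0 of the 35 were at 0.

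The ratio of the summed class II level to these markers was 0.361 to 0.846 in glomeruli and 1.27 to 1.41 in WK. It was 0.750 to 2.38 in arterioles, 1.30 to 2.15 in venules and 0.773 to 1.11 in PTC. All glomerular libraries lay below all WK libraries on this ratio, and venules and WK overlapped. The marker sum also holds lists of cells that do not typically carry class II, such as the neutrophil list, at 38.2 to 203 CPM in glomeruli and 3.44 to 15.1 CPM in WK. Fibroblast markers moved with class II as well, with 1559 to 4120 CPM in arterioles and 872 to 2385 in venules against 168 to 311 in glomeruli, 78.4 to 184 in PTC and 245 to 255 in WK. The part of either cell type in the class II levels was not tested.

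**Figure D4:**
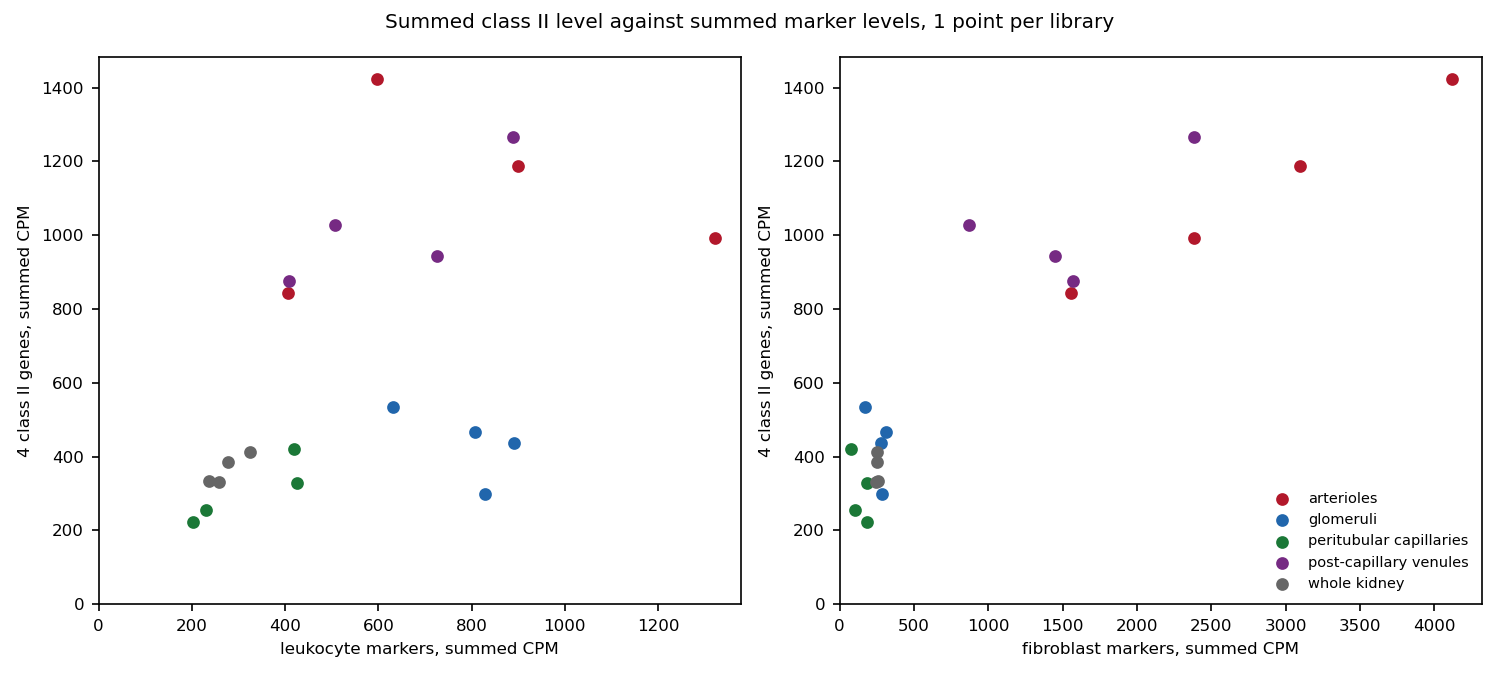
Summed CPM of the 4 class II genes (y axes) against the summed CPM of 35 leukocyte markers (left) and of 5 fibroblast markers (right), 1 point per library, linear axes from 0. Glomerular libraries have 631 to 891 CPM of leukocyte markers at 299 to 534 CPM of class II, and all arteriolar and venular libraries lie above 840 CPM of class II and above 870 CPM of fibroblast markers.

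The genes whose log2 CPM most resembled the summed class II level over the 16 microdissected libraries, of 9082 genes with a mean of at least 10 CPM, were Rcn3 (Pearson's r = 0.929), Fmod (0.906), Cst3 (0.899), Mfap5 (0.881), Mgp (0.881) and Dcn (0.880). Dcn, Fmod, Mfap5 and Mgp encode proteins of the extracellular matrix, and Dcn was also in the fibroblast list. For the summed class I level they were Heg1 (0.955), Vim (0.943), Rps27 (0.928), Ehd4 (0.926), Pkdcc (0.922) and Ly6c1 (0.918). Heg1 is a receptor of endothelial junctions, Vim an intermediate filament of mesenchymal and endothelial cells and Ly6c1 a surface antigen of endothelium and monocytes. The 16 points share 4 groups, and Dcn, for example, had a mean of 1281 CPM in arterioles and 858 CPM in venules against 33.8 to 102 CPM in the other groups.

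Among the other genes of the pathway, calls against WK were made in the immunoproteasome, regulator and other class I lists, all in arterioles. The immunoproteasome list (Psmb8, Psmb9, Psmb10, Psme1 and Psme2) produces peptides for class I. Psme1, a subunit of the proteasome activator PA28, measured 263, 582, 500 and 297 CPM in arterioles and 60.2 to 71.4 CPM in WK, without overlap (log2 fold change 2.62 ± 0.56, adjusted p = 0.00169). Psmb10, a catalytic subunit, had 112, 505, 142 and 42.7 CPM against 11.04 to 16.4 CPM in WK (3.85 ± 1.06, adjusted p = 0.0164). So 2 of 5 were called higher in arterioles than in WK, beside 5.78% of all genes, with a list median of 2.62 beside 0.22 over all genes. Against PTC, Psmb10 (4.63 ± 1.19, adjusted p = 0.00847) and Psme2 (3.59 ± 1.12, adjusted p = 0.0318) were called higher in arterioles. Psmb8 and Psmb9, whose genes lie within the class II region, were not called.

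Of 15 regulators of MHC transcription and interferon response, 2 were called higher in arterioles than in WK, where 5.78% of all genes were. The list median was 1.15 beside 0.22 over all genes, and nothing particular to the list is read from this count. Irf1, a transcription factor induced by interferon-γ, had 125, 168, 181 and 92.3 CPM in arterioles and 14.7 to 24.9 CPM in WK (2.82 ± 0.90, adjusted p = 0.0377). Ifngr1, the ligand-binding chain of the interferon-γ receptor, had 220, 452, 140 and 93.7 CPM against 20.4 to 27.99 CPM (3.25 ± 1.04, adjusted p = 0.0385). Both were above WK in every arteriolar library. Ciita, the master coactivator of class II genes, had 1, 0, 374 and 258 counts in arterioles, 0, 0, 18 and 1 in glomeruli, 0, 107, 1 and 1 in PTC and 424, 230, 0 and 142 in venules, and was not called in any comparison with WK or between compartments. Nlrc5, the corresponding coactivator of class I, had at most 1 count in each arteriolar library, against 8, 21, 37 and 24 counts in WK.

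Of the 8 genes of class I peptide loading (Tap1, Tap2, Tapbp, Tapbpl, Erap1, Calr, Canx and Pdia3), 0 were called against WK. At most 5.78% of all tested genes were called in any 1 direction against WK, so this count carries little weight. Calr, a chaperone of the endoplasmic reticulum, was called lower in glomeruli (505, 532, 404 and 350 CPM) than in PTC (1280, 1201, 913 and 2129 CPM), by -1.62 ± 0.41 (adjusted p = 0.0136). Calr (1.25 ± 0.31, adjusted p = 0.00835) and Canx (1.16 ± 0.35, adjusted p = 0.036) were also called higher in PTC than in the other compartments averaged. Over all tested genes, 2.29% were called lower in glomeruli than in PTC. In PTC against the other compartments averaged, 4.3% were called higher. Of 15 other class I and class I-like genes, 7 were tested against WK, and H2-Q6 was the 1 called, in arterioles with overlapping libraries. The class II loading list (9 genes, 8 tested against WK) and the co-stimulation list (5 genes, 3 tested) had 0 calls in any of the 14 comparisons. At most 8.11% of all tested genes were called in any 1 direction of these comparisons, so 0 calls in such short lists carry little weight.

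**Figure D5:**
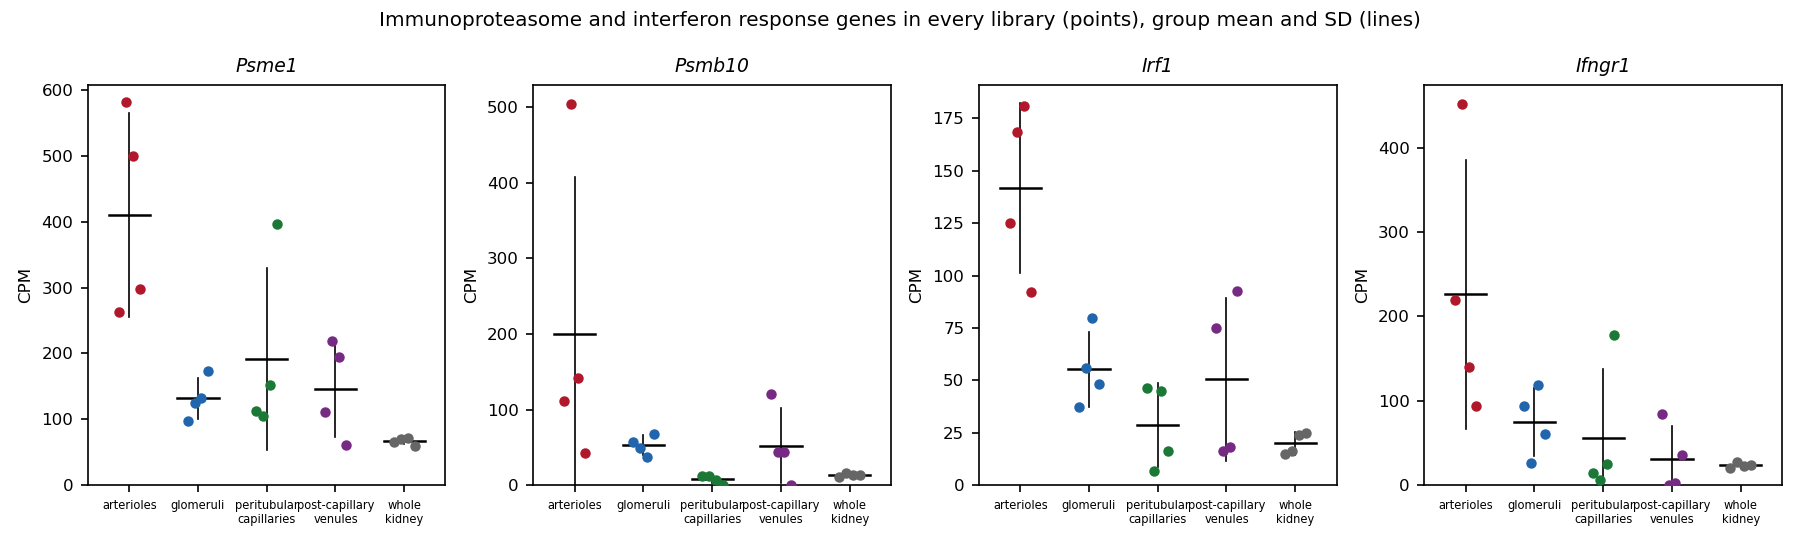
CPM (linear axes from 0) of Psme1, Psmb10, Irf1 and Ifngr1 in the 20 libraries, 1 point per library, with the group mean (horizontal line) and SD (vertical line) for n = 4. For each of the 4 genes every arteriolar library lies above every WK library, with Ifngr1 at 93.7 to 452 CPM in arterioles and 20.4 to 27.99 CPM in WK.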

How the data were processed

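The deposited table held raw read counts per gene, which the authors made from QuantSeq 3′ FWD single-end reads, so that a count is a tag near the 3′ end of a transcript. Reads were trimmed with bbduk, aligned with STAR (2.7) to GRCm38.p6 and counted with HTSeq (0.13), with SAMtools (1.9), FastQC (0.11.8) and MultiQC (1.7) also listed in the submitters' processing notes, which name GRCm39 and featureCounts as well. Neither label nor methods state the strand setting or whether molecular identifiers were counted. Of the table's columns, 20 were assigned to a group by their header lines, which give the section and the treatment control. The name of 1 PTC column (library 96) ended in extra letters. The other 148 columns were not used. The numbers 93, 96, 98 and 100 were not tied to the labelled replicates.

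Counts were scaled by TMM, filtered with filterByExpr and tested with the edgeR (4.0.16, R 4.3.3) quasi-likelihood test in its version 3 form, with Benjamini-Hochberg adjustment over all genes tested. Each compartment was compared with WK in a fit of 20 libraries (called at an adjusted p under 0.05 and a log2 fold change beyond 1), and the compartments with each other, pairwise and each against the average of the remaining 3, in a fit of 16 libraries (adjusted p under 0.05). Intervals are 95% intervals. Summed levels, ratios and correlations were not tested. The code was tested on simulated data. Alternatives were DESeq2 (1.42.0), its size factors, total-count scaling, no filter, independent filtering, the version 4 form of the edgeR test, another fold threshold, a replicate block, fits of only the groups compared, sums without B2m or Cd74, and leaving out each library. Summing H2-Q6 and H2-Q7 was added after the data were seen. All members were named in the comparisons. Of each pathway list, counts were given for the whole list and up to 4 genes per comparison were named by smallest p. The 6 genes with the highest correlation of log2 CPM (prior count 2, mean of at least 10 CPM) were named per class. A few further genes (Ciita, Nlrc5, Psmb8 and Psmb9) were named after their values were seen. Members and lists were chosen with earlier results of these data known.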

Additional observations from a re-analysis of the deposited data

Results flagged for a closer look

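In 6 of the 45 sets of 4 libraries (9 genes in 5 groups), 1 library stood apart, meaning that its gap to the nearest of the others, as a share of the whole range, exceeded Dixon's 95% critical value. Chance alone gives about 1 in 20 such sets. H2-T23 in glomeruli had library 93 highest (8.21 CPM, next 0.110 CPM, gap 0.987 of the range), and H2-T23 in venules likewise (8.06 CPM, next 1.11 CPM, 0.862). Cd74 in glomeruli was highest in library 93 (0.869 of the range), as was H2-Q7 in PTC (6.34 CPM, next 2.36 CPM, 0.908). In WK, H2-K1 was lowest in library 93 (112 CPM, next 136 CPM, 0.851) and B2m was lowest in library 96 (257 CPM, next 331 CPM, 0.888). Library 93 was involved in 5 of the 6 sets.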

How the results depend on the processing

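Of the 126 combinations of member and comparison, 24 were called, and 0 of these changed sign under any alternative, whereas 32 of the 102 others did. Against WK, arterioles had 7 calls, 4 with total-count scaling, 3 without the filter and 3 to 7 with 1 library left out. Glomeruli had 1 call, 2 with total-count scaling, 3 each with independent filtering, the version 4 test and only the groups compared, and 1 to 3 with 1 library left out. PTC had 0 calls and 1 with DESeq2. Venules had 0 calls, 2 with independent filtering, 7 with only the groups compared, 1 with DESeq2 and 0 to 1 with 1 library left out. Between arterioles and glomeruli there were 0 calls, 1 with DESeq2 size factors, 1 with total-count scaling, 2 with the version 4 test, 4 with DESeq2 and 0 to 1 with 1 library left out. Between arterioles and venules 2 were called with DESeq2 and 0 to 1 with 1 library left out. Between arterioles and PTC there were 6 calls, and 5 to 6 with 1 library left out. Between glomeruli and PTC there was 1 call, 3 with total-count scaling and 1 to 2 with 1 library left out. Between glomeruli and venules there were 0 calls, 1 each with total-count scaling, the version 4 test, DESeq2 and the sum of H2-Q6 and H2-Q7, 2 each with independent filtering and only the groups compared, and 0 to 1 with 1 library left out. Between PTC and venules there was 1 call, 2 with total-count scaling, 3 each with independent filtering, only the groups compared and DESeq2, and 0 with the version 4 test. Against the other compartments averaged, PTC had 3 calls, 5 with total-count scaling, 6 with DESeq2 and 2 to 4 with 1 library left out. Arterioles had 4 calls in that comparison, and 3 to 5 with 1 library left out. The share of all genes called under each alternative was not counted, and the cause of these changes was not tested.

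Summed class I levels per raw library total were 2051 CPM in glomeruli and 698 CPM in WK, and class II levels were 852 CPM in arterioles, 555 CPM in glomeruli and 432 CPM in WK. Without B2m, class I summed to 1577, 1002, 386, 650.4 and 273 CPM in arterioles, glomeruli, PTC, venules and WK, and without Cd74 class II summed to 315 CPM in WK.

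With the library number as a replicate block, 2 members were called between PTC and venules in place of 1 (H2-Aa and H2-Q7), H2-Eb1 lost its call between arterioles and WK and H2-Ab1 between arterioles and PTC, and no other member's call changed. The 40 same-numbered pairs of libraries had a mean correlation of 0.007 (-0.046 to 0.063) of their deviations from the group means, 0 of them above 0.1, and 10 of the 20 libraries correlated best with their own number. Segments were collected per mouse, but whether a number marks a mouse is not stated, so whether the numbers pair the libraries cannot be settled here. H2-T23 was at 8 counts or fewer in most microdissected libraries, and the fit of only arterioles and WK called it lower in arterioles.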
